A study of Mus musculus with 4 samples.

Results

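The BCL2 family of apoptosis regulators was examined through 10 named mouse genes among the 21896 protein-coding genes of the reference. They were chosen by name, with earlier results of these data known. They comprise 3 pro-survival genes (Bcl2, Bcl2l1 and Mcl1), 2 effectors (Bax and Bak1) and 5 BH3-only genes (Bbc3, Pmaip1, Bcl2l11, Bid and Bad). The study profiled N6-methyladenosine (m6A), a methyl mark on RNA, in MIN6 cells, a mouse insulinoma line, labelled C57BL/6, used as a model of the pancreatic beta cell. One arm received an expression vector for GR, read here as the glucocorticoid receptor, and the other a control vector, with 10 µg of plasmid for each 10 cm dish and RNA collected 24 hours later. Both arms grew in medium with 25 mM glucose, and neither the labels nor the files state an added glucocorticoid. Each arm gave 1 m6A immunoprecipitation library and 1 input library, so nothing below has a replicate check and no test between the arms was possible. The files used hold the authors' GR against control comparison and no value per library, so depth is unknown, and RNA level cannot be told apart from methylation for any gene named here. Nr3c1, the gene of the glucocorticoid receptor, was not in the gene table, and no file used here gives its level in either arm.

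BCL2 proteins decide whether the outer mitochondrial membrane is opened to release cytochrome c, which starts the caspase cascade. Pro-survival members hold the effectors in check, effectors form the pores, and BH3-only proteins carry stress signals by binding either kind through their BH3 helix. In beta cells this pathway is known for its part in death from endoplasmic reticulum stress, glucolipotoxicity and cytokines.

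In the authors' table of genes related to differential m6A peaks, 9 of the 10 members were listed and Pmaip1 was absent. The share of all protein-coding genes listed was 25.2%, taken over the whole reference with no filter for expression in these cells. The table gives an Ensembl gene ID, a symbol and protein domain names on each line, with no direction, size or position of a peak. A gene may fill several lines, which were identical in each of the 9225 listed IDs, and the meaning of one line is not given. The members filled 21 of the 17052 lines. Pro-survival and pro-death members were both listed, and nothing in the table says which way any member's m6A went.

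All 3 pro-survival members were listed. Bcl2, the founding inhibitor of apoptosis, had 3 lines. Mcl1, a short-lived inhibitor, also had 3, and Bcl2l1, which encodes BCL-XL, had 1. Both effectors were listed, Bax with 4 lines, the highest number in the family, and Bak1 with 2. Of the 5 BH3-only genes 4 were listed. Bbc3 (PUMA), a p53 target, had 3 lines. Bid, which links death receptors to mitochondria after caspase cleavage, had 2. Bad, which is switched off by phosphorylation downstream of growth factors, had 2, and Bcl2l11 (BIM), a FOXO target, had 1. Pmaip1 encodes NOXA, the partner of MCL1, and its ID had no line. The classes thus overlapped in their lines, from 1 to 3 in pro-survival genes, 2 to 4 in effectors and 0 to 3 in BH3-only genes, and with 2 to 5 genes a class no difference between classes was shown.

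**Figure D1:**
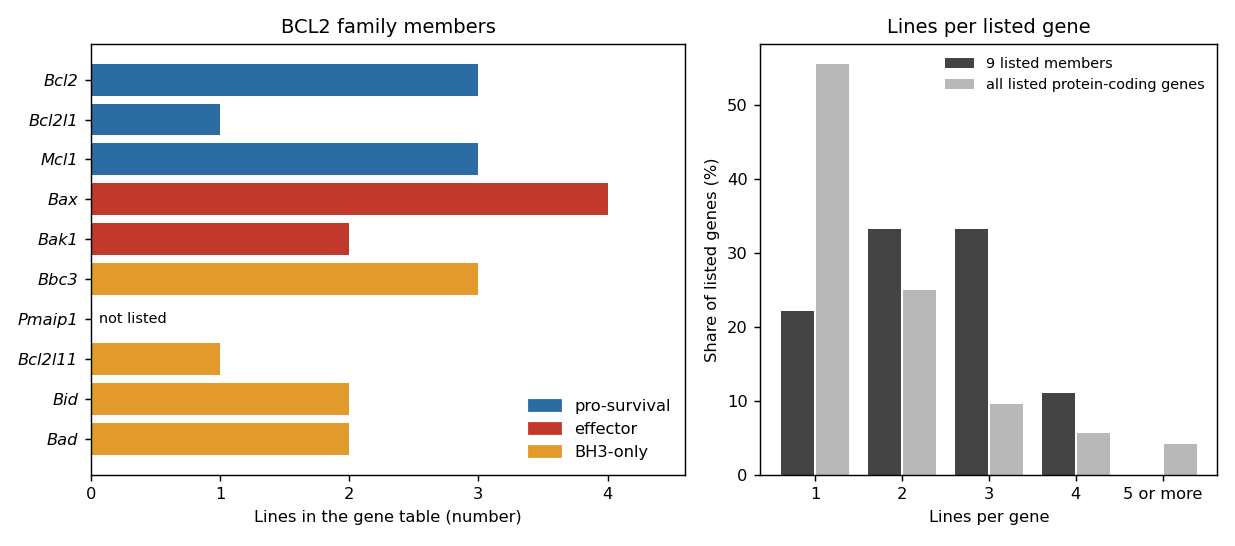
Lines of each member in the authors' gene table (left, bars from 0, coloured by class) and the share of listed genes with a given number of lines (right, % of the 9 listed members in dark grey and of the 5524 listed protein-coding genes in light grey). Bax had the most lines, 4, and Pmaip1 had none.

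On 2 or more lines were 7 of the 10 members, where 11.2% of all protein-coding genes were. Among listed genes only, these were 7 of the 9 listed members and 44.5% of the listed protein-coding genes. The listed members had a median of 2 lines, and the listed protein-coding genes a median of 1. Bax had more lines than 90.2% of the listed protein-coding genes, and Bcl2, Mcl1 and Bbc3 more than 80.6% of them. A relation between the number of lines and gene length was not tested. Length here is the span of the gene in the genome. Bax, with 4 lines, spans 5.21 kb, whereas Bcl2l1 with 1 line spans 75.1 kb and Bcl2l11 with 1 line spans 36.5 kb. Bcl2, with 3 lines, spans 176 kb. Of the 5 members shorter than 10 kb, 4 were listed, beside 23.7% of all protein-coding genes of that length. The longest member, Bcl2 at 176 kb, was listed in a class of genes of 100 kb or more in which 18.6% were.

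Absence from this table does not mean absence of a peak. A separate deposited table gives peaks for 22 autophagy genes, and 13 of those 22 were absent from the gene table despite a deposited peak. None of the 10 members was in that autophagy table, so none has a deposited position or fold change. Pmaip1 is therefore not listed, which does not show that its m6A was alike in both arms.

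The domain names deposited with each line followed the structural classes only in part. BH1, BH2 and BH3 motifs were named for Bcl2, Bcl2l1, Mcl1, Bax and Bak1, and a BH4 entry for Bcl2 and Bcl2l1. The pro-survival Mcl1 thus had the same motifs named as the effectors. Bid carried the BCL2-like fold with a BH3 motif but no BH1 or BH2, as the only BH3-only member with that fold. Bcl2l11 carried a BH3 domain with a Bim-specific N-terminal region. Bbc3 and Bad, although BH3-only genes, carried their own family name alone and no BH3 entry. Across all 9225 IDs, 17 had a domain or family name of the BCL2 kind, 9 of them members. The other 8 were Bcl2l2 and Bcl2l15 with 2 lines each, the testis gene model 1700003F12Rik with 2, and Bcl2l13, Bmf, Becn1, Bclaf1 and Bnipl with 1 each. Becn1 (Beclin 1), an autophagy initiator that BCL2 binds through a BH3 domain, was the single non-member among 8 IDs with a BH3 entry, and Bcl2l2 (BCL-w) the single non-member among 6 IDs with BH1 and BH2 motifs.

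Members overlap other genes in the RefSeq annotation of GRCm38.p6, the assembly behind mm10. Bak1 (chromosome 17, 27019812 to 27028627) lies wholly inside the span of Ggnbp1, which had 6 lines of its own. Bad (chromosome 19, 6941861 to 6951905) shares 590 bases with Gpr137, which had 1 line, and Bid (chromosome 6, 120893119 to 120917062) shares 988 bases with the pseudogene Gm17812, which had 3. Strand use in the peak assignment is not stated, so lines of these pairs cannot be told apart by locus. Cox4i2, which overlaps Bcl2l1 (chromosome 2, 152758732 to 152833803), and Acoxl, which overlaps Bcl2l11 (chromosome 2, 128126038 to 128162547), were not listed, and neither were the RNA genes that overlap Bcl2 (chromosome 1, 106538176 to 106714290). No annotated gene overlapped Bax (chromosome 7, 45461695 to 45466903), Mcl1 (chromosome 3, 95656944 to 95663179) or Bbc3 (chromosome 7, 16308398 to 16318334).

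RefSeq start windows of GRCm38.p6, 250 bases before and 50 after each annotated transcription start, were found for the 9 listed members, 15 windows in all. Some members had more than 1 window, and those of Bbc3 partly overlap. The letters AGAACA of the glucocorticoid response element, read on both strands, were in 0 of the 15 and in 19.0% of all 32851 windows. The full palindrome, AGAACA and its reverse complement spaced by any 3 bases, was in 3 of all windows and in 0 of the 15. The members' windows were rich in G and C, with a median of 65.7% and a range from 49.3% in Bcl2l1 to 78% in Bbc3, beside a median of 52.7% in all windows. Among all windows with at least 60% G and C, a group that includes 10 of the 15, these letters were in 7.34%. The m6A consensus, searched as DNA on the sense strand, was taken as GGACT or one of its variants GAACT, as well as AGACT, and in addition AAACT. Of all windows, not matched for G and C content, 17.8% hold one of these in the first 50 transcribed bases. Among the 15 only 1 did, at the downstream start of Bad (chr19:6942560-6942589, plus strand), shown because it is the single candidate motif in transcribed bases that the tables reach, with the motif in capitals and beginning at transcribed base 11.
Bad: cgggcgcccttaGAACTggagggaggaggc
A match of letters is a description of sequence, and no deposited peak position tells whether any member's peak lies there.

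The wider family was listed less fully. Of 9 further genes of the same classes, 2 were listed (22.2%), a share near the 25.2% of all protein-coding genes. These were Bcl2l2 with 2 lines and Bmf, a BH3-only gene tied to the cytoskeleton, with 1. The 3 mouse A1 genes Bcl2a1a, Bcl2a1b and Bcl2a1d, the pro-survival Bcl2l10, the effector relative Bok and the BH3-only genes Bik and Hrk were absent. The A1 genes are near-identical copies, among which reads can be lost or split. Whether this bears on their absence was not tested. With the members, 11 of 19 were listed (57.9%). Among BCL2-like and BNIP genes 5 of 8 were listed, Bcl2l12 with 3 lines, Bcl2l15 and the mitophagy receptor Bnip3l with 2 each, and Bcl2l13 and Bnip1 with 1, whereas Bcl2l14, Bnip2 and Bnip3 were absent.

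Of the lists downstream of the BCL2 proteins, those reported here had shares near the 25.2% of all protein-coding genes. Of 9 genes for mitochondrial release and the apoptosome, the channel Vdac3 (3 lines) and the nuclease Endog (2 lines) were listed (22.2%), while Apaf1, the scaffold of the apoptosome, Cycs, Aifm1 and Diablo were absent. Inhibitors of apoptosis had 3 of 10 listed (30%), Birc2 with 3 lines, Birc5 (survivin) with 2 and Xiap with 1, and Birc3, Birc6, Birc7 and Naip1 were among the absent.

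The lists upstream of the BCL2 proteins are set beside the same 25.2%, and with 10 to 18 genes a list no difference from those downstream lists was shown. Of the death receptors and adaptors 5 of 10 were listed (50%), led by the adaptor Fadd and the TNF receptor Tnfrsf1a with 4 lines each, then Tnfrsf21 and Tnfrsf25 with 2, and Cflar, Fas, Tnfrsf10b and Tradd were absent. Of the p53 list 6 of 10 were listed (60%), among them the cell cycle inhibitor Cdkn1a, the p53 ubiquitin ligase Mdm2 and the stress gene Trp53inp1 with 2 lines each and Mdm4 with 1, whereas Trp53 itself, Trp63, Trp73 and Pidd1 were absent. Of 18 genes that act on BCL2 proteins or their expression 10 were listed (55.6%). Ddit3 (CHOP), an endoplasmic reticulum stress factor that raises BH3-only genes, Gsk3b, a kinase that marks MCL1 for destruction, and Moap1, a BAX activator, had 3 lines each, and Bag6 had 2. Akt1, the kinase that phosphorylates BAD, Bag3, Btrc and Huwe1, a ubiquitin ligase for MCL1, were absent. Of 12 beta-cell markers 9 were listed, among them Ins1, Pdx1 and Mafa, with Ins2, Iapp and Neurod1 absent, beside 1 of 5 markers of other islet cells (Gcg) and 0 of 5 acinar and ductal markers. A line in the gene table is not an expression level, so these counts do not check the labelled cell type, which could not be checked from the files used here.

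**Figure D2:**
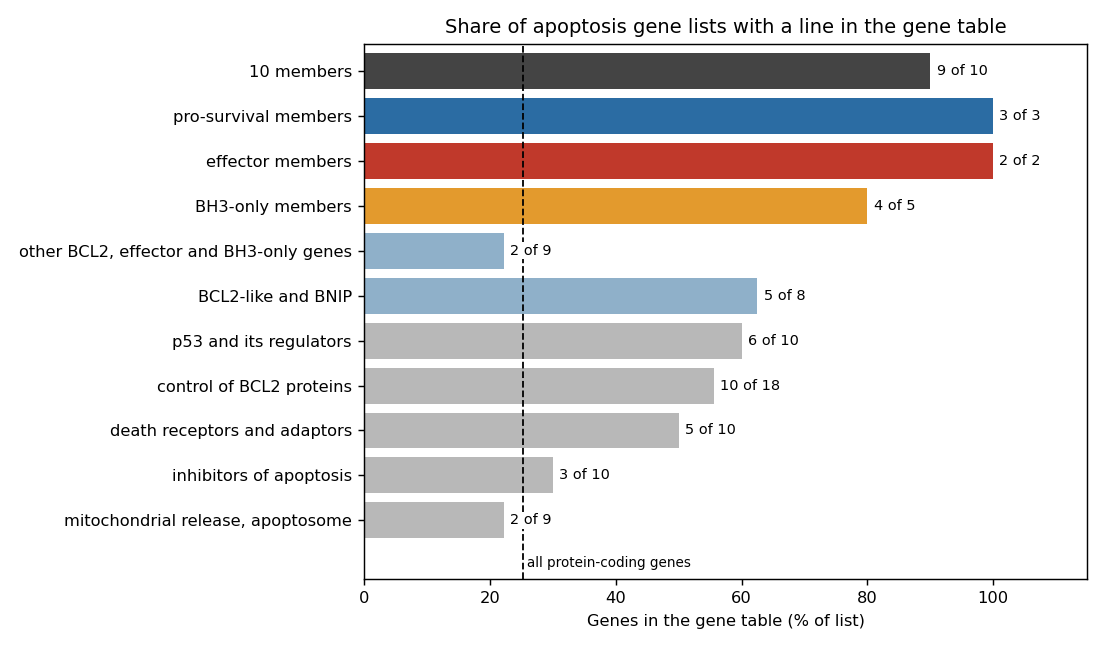
Share of each apoptosis list found in the gene table (bars, % of the list, with the number of genes beside each bar). The dashed line marks the 25.2% of all protein-coding genes. The 10 members stood at 90% and the 9 further family genes at 22.2%.

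The KEGG pathway table placed the listed members in 55 of its 290 pathways. The authors' deposited adjusted p was below 0.05 in 53 of those 55, where it was in 66.9% of all pathways. These 55 were picked for holding a listed member, so this contrast is partly fixed by the selection and was not tested. In the authors' deposited table the Apoptosis pathway held all 9 listed members, with 72 input IDs against 139 background genes, p = 3.07e-11 and an adjusted p of 4.24e-10, rank 21 by p. Apoptosis - multiple species held 7 (without Mcl1 and Bad), for which the authors' deposited table gives 24 input IDs against 32 and an adjusted p of 5.91e-06. Platinum drug resistance also held 7, without Mcl1 and Bcl2l11, for which the authors' deposited table gives 37 against 78 and an adjusted p of 3.07e-05.

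These input counts include IDs that are not the pathway gene itself. In Apoptosis the 72 IDs stood for 60 Entrez genes, and 12 of the 60 were represented only by another gene model. Cytochrome c (Cycs) was counted through 5 models and not through its own ID, Trp53 through the pseudogene Trp53-ps, and Diablo, the release factor that blocks inhibitors of apoptosis, through the model Gm49027. All 9 BCL2 members were counted through their own ID, and no other ID was mapped to any of them. Counting only genes with their own ID listed, Apoptosis held 48 of 139 (34.5%), the p53 pathway 30 of 68 (44.1%) and Apoptosis - multiple species 16 of 32 (50%). Members made up 9 of the 48, 3 of the 30 and 7 of the 16, in that order.

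The pathways with 5 members each were Pathways in cancer (161 input IDs against 398), PI3K-Akt signaling (144 against 350), EGFR tyrosine kinase inhibitor resistance (55 against 82) and amyotrophic lateral sclerosis (36 against 52), for which the authors' deposited table gives adjusted p-values of 1.13e-13, 7.73e-13, 7.49e-11 and 9.85e-08 in that order. Bax, Bcl2, Bid, Bad and Bcl2l1 were the members of the first and the last of these. In the same order, the input IDs of the pathways with 5 members stood for 141, 120, 42 and 30 distinct Entrez genes. The deposited p-values were copied and not recalculated on distinct genes. Tuberculosis and MicroRNAs in cancer held 4 each, Tuberculosis with Bad, Bax, Bcl2 and Bid and MicroRNAs in cancer with Bak1, Bcl2, Bcl2l11 and Mcl1. NAFLD held Bax, Bcl2l11 and Bid. Altogether 20 pathways held 3 or more members, 11 held 2 and 24 held 1.

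**Figure D3:**
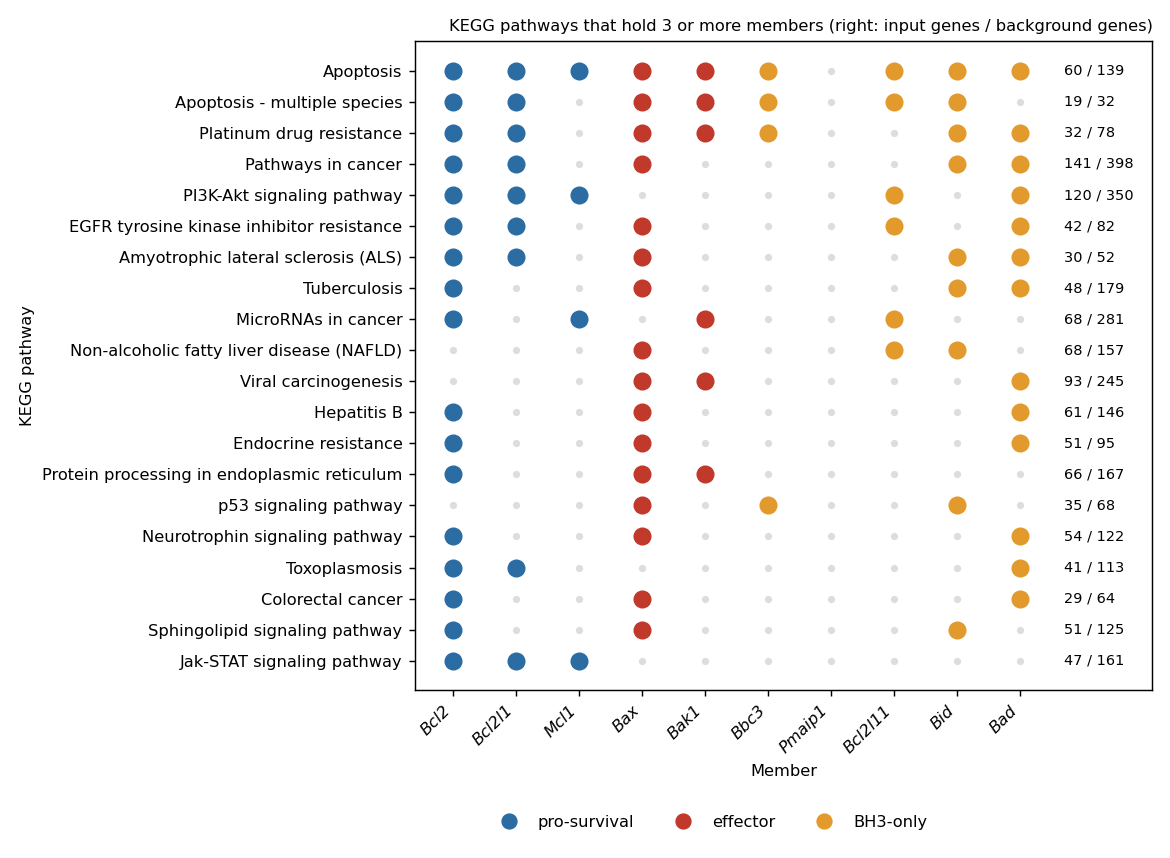
Members in the input of the 20 KEGG pathways that held 3 or more (large dots, coloured by class; small grey dots, not in that input). The numbers at the right are distinct Entrez input genes over background genes, 60 over 139 for Apoptosis. Pmaip1 was in none of the pathways.

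The pathways of each listed member are fixed by the KEGG annotation. Bad was in 30 pathways, Bcl2 in 27, Bax in 21, Bcl2l1 in 16, Bid in 12, Bbc3 and Bcl2l11 in 7 each, Bak1 in 6 and Mcl1 in 4. Bax and Bcl2 stood together in 14 pathways. Bad was the only member in 11 pathways, among them growth factor and second messenger signalling such as ErbB, VEGF, cAMP and cGMP-PKG signaling. One of the 11 was Insulin signaling, for which the authors' deposited table gives 78 input IDs against 142 and an adjusted p of 1.13e-11. Its 78 IDs stood for 62 distinct Entrez genes. Bcl2 was the only member in HIF-1 signaling and in 4 others, Bcl2l11 in FoxO signaling and Bbc3 in Hippo signaling. The p53 pathway held Bax, Bbc3 and Bid, and Protein processing in endoplasmic reticulum held Bax, Bak1 and Bcl2. Jak-STAT signaling held the 3 pro-survival members alone. Insulin secretion, Type II diabetes mellitus, Maturity onset diabetes of the young and Regulation of autophagy held none. The 2 pathways with a member and an adjusted p of 0.05 or more in the authors' deposited table were Prion diseases (Bax, 0.0684) and Natural killer cell mediated cytotoxicity (Bid, 0.0733).

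In the Gene Ontology (GO) table a listed member was in 1549 of 16568 terms, 9.35%. GO terms are nested and share genes, so these are not separate results, and the authors' deposited table gives p = 1 for every term, hence no ranking. Bcl2 was in 779 terms, Bax in 639, Bcl2l1 in 545, Bad in 532, Bak1 in 394, Bcl2l11 in 320, Bid in 294, Bbc3 in 270 and Mcl1 in 166. Exactly 1 member was in 749 terms and all 9 were in 52. The terms of up to 500 background genes with all 9 were the intrinsic apoptotic signaling pathway in response to DNA damage (46 of 108 genes with a peak, 42.6%), the intrinsic apoptotic signaling pathway (108 of 279, 38.7%) and regulation of apoptotic signaling pathway (135 of 393, 34.4%), all in the authors' deposited table. The gene lists of all terms together hold 26.0% of the 20770 background genes.

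Of the 10 terms of up to 500 background genes that held the most members, 6 held all listed members except Mcl1, and they concern membrane permeability and mitochondria. Ties were settled by fewer background genes. This left out extrinsic apoptotic signaling pathway (without Bbc3) and mitochondrion organization (without Mcl1), which also held 8 members. They had 65 of 219 (29.7%) and 179 of 456 (39.3%) genes with a peak in the authors' deposited table. Regulation of mitochondrial membrane permeability had 28 of 52 genes with a peak in the authors' deposited table (53.8%), and mitochondrial membrane organization had 53 of 97 (54.6%). The authors' deposited table gives 30 of 61 for regulation of membrane permeability, 27 of 62 for release of cytochrome c from mitochondria (43.5%), 49 of 111 for apoptotic mitochondrial changes (44.1%) and 74 of 171 for mitochondrial transport (43.3%). Regulation of intrinsic apoptotic signaling pathway, with 62 of 162 in the authors' deposited table, held 8 as well, with Mcl1 and without Bak1. Mcl1 was in other mitochondrial terms, such as mitochondrial outer membrane, which held 7 members (without Bbc3 and Bcl2l11) and had 65 of 175 genes with a peak in the authors' deposited table (37.1%). Among the terms for the family's own binding, BH3 domain binding had 4 of 5 genes with a peak in the authors' deposited table, all members (Bax, Bcl2, Bcl2l1 and Mcl1). The Bcl-2 family protein complex had 6 of 7 in the authors' deposited table, of which Bak1, Bax, Bcl2l1, Bcl2l11 and Mcl1 were members. BH domain binding had 6 of 14 in the authors' deposited table (42.9%), with Bak1 added to the 4 genes of BH3 domain binding.

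Terms were also grouped into themes by their names, after the terms were seen. Once a gene is listed, its GO terms are fixed by annotation, so the counts describe what each member is annotated to and not a response to GR. Of 98 insulin and glucose terms 14 held a member, and 13 of the 14 held Bad. Among these were insulin secretion (79 of 211 genes with a peak in the authors' deposited table), insulin secretion in response to glucose (35 of 85) and glucose homeostasis (105 of 273). Of 28 terms on the endocrine pancreas 7 held a member. Bad was in these 7, including development (7 of 20) and proliferation (7 of 23) of the type B pancreatic cell, which is the beta cell, in the authors' deposited table. Bak1 was in 2 of the 7. The term for apoptosis of the type B pancreatic cell, with 5 of 14 genes in the authors' deposited table, held 0 members. Of 40 terms on endoplasmic reticulum stress and the unfolded protein response 9 held a member. Bax and Bak1 were each in these 9, Bcl2 and Bbc3 in 2 and Bcl2l11 in 1. Of 18 p53 terms 3 held a member, Bbc3 in each and Bax in 2. Of 35 autophagy terms 4 held a member, Bcl2 and Mcl1 in each, one of them negative regulation of autophagy with 29 of 65 genes in the authors' deposited table. Of 22 glucocorticoid terms 1 held a member. It was response to glucocorticoid (51 of 181, 28.2% in the authors' deposited table), with Bad and Bcl2. Of 18 terms on neuron death 11 held a member, and Mcl1 was in 9 of them. Of 60 terms on B lymphocytes, a cell type unrelated to the type B pancreatic cell, 19 held a member, with Bax in 12 and Bcl2 in 10.

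**Figure D4:**
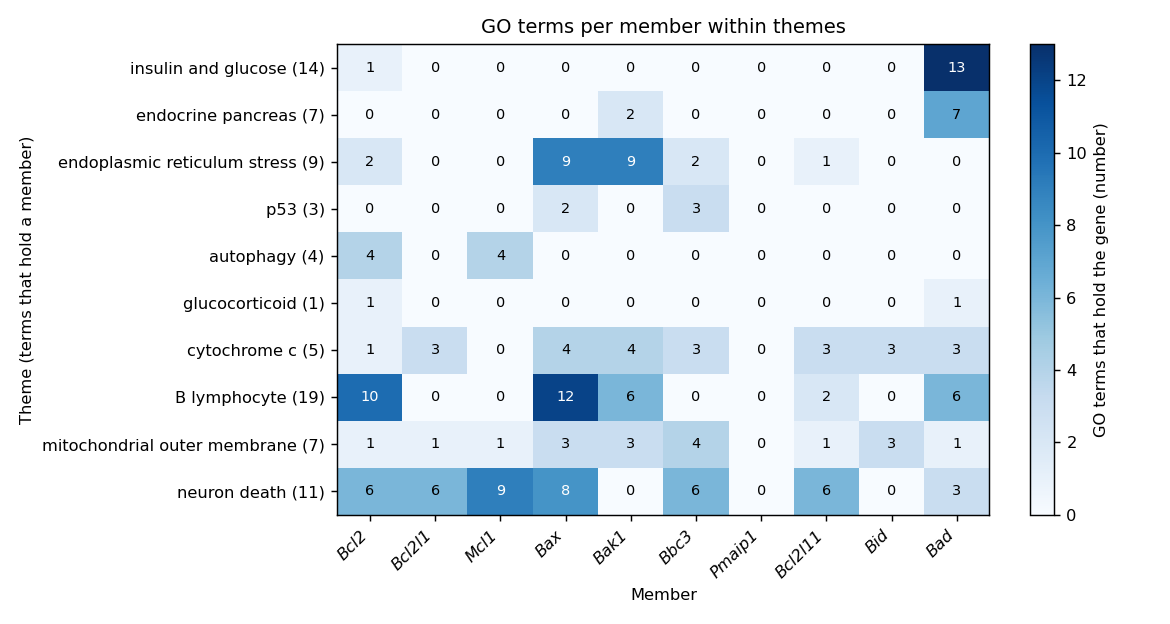
Number of GO terms that held each member within 10 themes (rows, with the number of terms that held any member in parentheses; columns, members; darker blue, more terms). Bad is in 13 of the 14 insulin and glucose terms that held a member, and Bax and Bak1 are each in the 9 of 40 endoplasmic reticulum stress terms that held one.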

How the data were processed

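m6A immunoprecipitates and inputs of fragments of about 100 nucleotides were sequenced in pairs of 150 bases, 1 library of each kind per arm, per the labels' protocols. BWA 0.7.12, HOMER 4.9.1 and the build mm10 are named in the submitters' processing notes. The program and thresholds for differential peaks are not given in the sources used here. The authors deposited a gene list without values, and KEGG and GO tables of p-values and gene counts. KEGG p-values came from a hypergeometric or Fisher exact test with Benjamini and Hochberg correction, per the file headers. The deposited GO counts give 10022 genes with a peak, which exceeds the 9225 IDs of the gene table and is not explained, so that total was not used.

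Members were matched by Ensembl ID through a table of gene names, which matched 9217 of the 9225 IDs. All 63 overflow lines of GO gene lists were joined to their terms. Protein-coding genes were matched by symbol to a RefSeq table of GRCm38.p6. The members and lists were chosen with earlier results of these data known. Named genes of other lists were the 4 with most lines and up to 4 absent ones by symbol, others being named after their values were seen. Pathways and terms were named by the number of members they held, and others were chosen after they were seen. The list entry for Tp53inp1 was read as its mouse symbol Trp53inp1. No test was run, since no value per library was at hand. Some genes and the results that need them are not reported here. Line counts and the joining of GO lists were tested on simulated data. Calculations used Python 3.11.15, pandas 2.3.3, NumPy 2.4.6, SciPy 1.17.1 and Matplotlib 3.10.9.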

Additional observations from a re-analysis of the deposited data

How the results depend on the processing

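Matching by the deposited symbol gave the same 9 listed members. Counting identical lines once left 9 lines for the members in place of 21. The share of all protein-coding genes listed, 25.2%, was 27.0% without olfactory and vomeronasal receptors and 26.7% without Gm and Rik models, a setting chosen after seeing the data. Terms with 10 to 500 background genes that held a member numbered 939 in place of 1549. The wider family gave a listed share of 57.9% in place of 90%, and brought that of pro-survival genes to 50%, of effectors to 66.7% and of BH3-only genes to 62.5%. These stayed inside exact Clopper-Pearson 95% intervals (55.5% to 99.7% for the 10 members) that are too wide to show stability. The wider lists contain the members themselves, and the 10 genes were not drawn at random, so staying inside is no check. The 9 further genes alone stood at 22.2%. This share lay outside the interval of the 10 members, but the interval of the 9 further genes overlapped it. Neither list was drawn at random, so lying outside is no check either, and no difference between the lists was shown. No paired analysis was possible because each arm has 1 library of each kind and the files hold no value per library.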
